A study of Mus musculus with 6 samples.

Results

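The genes described here are the spalt-like zinc-finger genes Sall1, Sall2, Sall3 and Sall4, together with Utf1, Rest, Zscan10, Foxd3, Zfp281 and L1td1, 10 regulators of the pluripotent state chosen by name. All 10 were present among the 24083 genes of the expression table, and 9 of them were tested. RNA-seq of polyadenylated RNA was made from mouse embryonic stem cells with the R153A form of Nanog (3 libraries) and from cells with wild-type Nanog (WT, 3 libraries). R153A names a change of arginine to alanine in the NANOG protein. Cells of both genotypes were cultured in serum with LIF, a cytokine that supports self-renewal, on gelatin-coated dishes, and received no further treatment. The sources used here do not say how the R153A form was introduced or whether the libraries of a genotype came from separate clones or cultures, so the p-values measure the spread between these libraries, which may be technical.

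Mouse embryonic stem cells hold their identity through NANOG, OCT4 and SOX2 and a wider set of DNA-binding and chromatin factors. Spalt factors are multi-zinc-finger proteins that recruit the NuRD deacetylase complex, and SALL4 and SALL1 are known as partners of the core factors in these cells. REST is known for silencing neuronal genes outside neurons through CoREST and SIN3 corepressors, and L1TD1 is an RNA-binding protein of pluripotent cells derived from the first open reading frame of a LINE-1 element. The comparison of R153A with WT cells asked how the RNA levels of these factors differ between the genotypes.

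Levels were in FPKM, which scales the fragments of a gene to its length and to the mapped fragments of the library and so allows levels of different genes to be set side by side. The sum of FPKM per library ranged from 360152 to 382086, and sequencing depth is unknown. Tests were made with limma on log2(FPKM + 1) for the 11817 genes with at least 1 FPKM in at least 3 libraries. Log2 fold changes are R153A minus WT on that scale, which understates the change of genes with low FPKM, and adjusted p-values are Benjamini-Hochberg values over all genes tested. Nanog itself stood at 119, 122 and 129 FPKM in R153A libraries, against 241, 259 and 258 FPKM in WT libraries, which does not check the residue change. Of the 7 embryonic stem cell markers examined, 6 were lower in R153A cells and 1 did not pass the test. The share called lower was 85.7%, against 22.3% of all tested genes. The summed level of the markers was 2094 to 2177 FPKM in R153A libraries and 4011 to 4721 FPKM in WT libraries. Dppa5a made up much of that difference, at 936 FPKM in R153A cells and 2575 FPKM in WT cells. In the same order Pou5f1 averaged 518 and 688 FPKM, and Tdgf1 429 and 432 FPKM. In bulk RNA, fewer cells of a type and less RNA per cell cannot be told apart.

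Across the whole table, 59.8% of the tested genes differed at a limma adjusted p under 0.05. Of all tested genes, 37.5% were higher and 22.3% lower in R153A cells, and the libraries of the genotypes did not overlap in 65% of them. Among all calls, 62.7% were higher in R153A cells, but 45.9% under median-ratio scaling, 47.4% under quantile normalization and 43.7% after a correction for GC content and transcript length. Against this background 8 of the 9 tested regulators differed, 4 higher and 4 lower, and 7 of the 9 had groups that did not overlap. Sall2 was under 1 FPKM in all WT libraries and entered the test only through R153A cells, where it was high. Of the 8 other tested regulators 7 differed, 3 higher and 4 lower, and 6 had groups that did not overlap. The median log2 fold change was -0.023 over the 9 and -0.21 without Sall2, compared with 0.071 over all genes tested. The median absolute log2 fold change of the 9, Sall2 included, was 0.64, compared with 0.24 over all genes tested. Including Sall2 raises that median. The regulators were also chosen with earlier results of these data known, so a larger median is not separate evidence.

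Sall2, Zscan10, Zfp281 and L1td1 were higher in R153A cells, and Sall1, Utf1, Rest and Foxd3 were lower. Sall4 did not pass the test, and Sall3 was below the expression filter. The calls of 5 genes, Sall1, Utf1, Rest, Foxd3 and L1td1, held in all 17 alternatives. The call of Zscan10 ended in 6 of them, among them no filter on low values and 3 left-out libraries, and that of Zfp281 ended under median-ratio scaling. The dot plots of FPKM show the libraries behind each comparison.

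**Figure D1:**
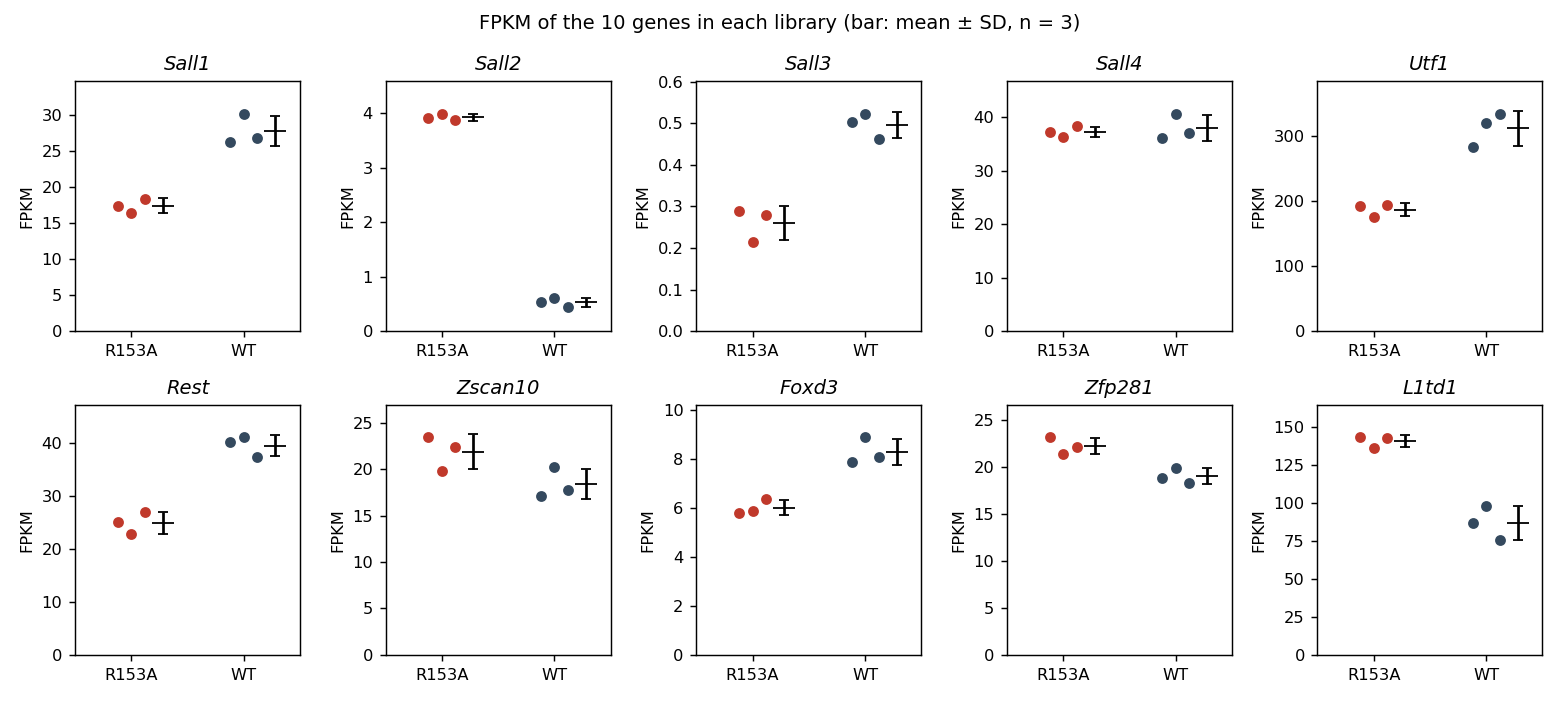
FPKM (vertical axes, each starting at 0) of the 10 genes in the 3 R153A libraries (left in each panel) and the 3 WT libraries (right); points are libraries and bars the mean ± SD. Sall2 stood at 3.87 to 3.99 FPKM in R153A libraries and at 0.448 to 0.606 FPKM in WT libraries, while the points of Sall4 and Zscan10 overlap between the genotypes.

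Sall2 showed the largest change of the 9 tested genes. SALL2 is the most divergent Spalt factor and is known from neural and eye development. It stood at 3.92, 3.99 and 3.87 FPKM in R153A libraries, against 0.530, 0.606 and 0.448 FPKM in WT libraries. The ranges lay far apart, and the libraries of a genotype differed little from each other. Its mean FPKM was 7.44-fold higher in R153A cells, a log2 fold change of 1.69 (SE 0.0772, adjusted p = 1.4e-08 by limma). Only 1.91% of the tested genes had a larger absolute log2 fold change. Because it passed the filter only through its level in R153A cells, neither its call nor its rank by size of change is separate evidence. With a pseudocount of 0.1 the log2 fold change was 2.69.

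Mettl3, which encodes the N6-methyladenosine methyltransferase, is the nearest protein-coding gene on one side of Sall2 in RefSeq. It averaged 14.5 ± 0.371 FPKM in R153A cells and 12.1 ± 0.817 FPKM in WT cells (SD, n = 3 each). This was a log2 fold change of 0.24 (SE 0.0624, adjusted p = 0.0062 by limma). That call ended under median-ratio scaling (adjusted p = 0.095 by limma) and after the GC and length correction (0.054). Among the nearest genes of the other regulators, some called genes moved with their regulator and others moved against it.

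RefSeq annotates 2 starts for Sall2, which gene-level FPKM does not separate, and their promoters are shown because Sall2 changed most. The windows run from 250 bases before to 50 bases after a start, on build GRCm38.p6, while the deposited values came from mm9, per the submitters' processing notes. Capitals mark matches on either strand to any of 5 motifs, the POU octamer's first 7 letters (ATGCAAA), a NANOG homeodomain core (TAATGG), a SOX core (ACAAAG), the GC box (GGGCGG) and the TATA box (TATAAA).

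Sall2 start 1, chr14:52328621-52328920, minus strand: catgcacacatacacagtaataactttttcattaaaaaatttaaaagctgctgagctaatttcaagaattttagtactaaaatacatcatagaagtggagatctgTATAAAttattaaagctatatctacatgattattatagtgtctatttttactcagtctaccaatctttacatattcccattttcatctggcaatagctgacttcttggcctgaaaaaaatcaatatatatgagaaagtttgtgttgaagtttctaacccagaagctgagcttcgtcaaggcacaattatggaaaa
Sall2 start 2, chr14:52316274-52316573, minus strand: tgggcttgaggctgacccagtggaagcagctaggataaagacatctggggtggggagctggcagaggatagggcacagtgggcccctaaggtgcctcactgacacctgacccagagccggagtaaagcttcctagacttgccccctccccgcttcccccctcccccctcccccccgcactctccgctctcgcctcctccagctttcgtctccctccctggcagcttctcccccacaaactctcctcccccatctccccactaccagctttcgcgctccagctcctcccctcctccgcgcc

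The windows differ in base composition. The first has a GC content of 30.3% and 1 CpG, and the second has 65.0% and 10 CpGs, against a median of 52.7% and 7 CpGs over the 32851 RefSeq promoter windows. The first window holds 1 TATA box match, as do 13.6% of all windows, and the second holds no match to the 5 motifs. No match says only that these letters are not in the window.

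Sall1 was lower in R153A cells. SALL1 is a repressor that interacts with NuRD and is known for its role in kidney and limb development. It stood at 17.4, 16.4 and 18.4 FPKM in R153A libraries, against 26.3, 30.2 and 26.8 FPKM in WT libraries. All R153A values lay below all WT values. With a log2 fold change of -0.64 (SE 0.0661, adjusted p = 8.3e-06 by limma), its mean was 1.60-fold higher in WT cells. Sall1 overlaps the long noncoding RNA gene Gm3134 in RefSeq, and whether counting used strand is not stated in the labels, so reads of the overlap cannot be told apart.

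The first of the 3 annotated Sall1 starts and the single Utf1 start are shown because both genes fell and each window holds a motif match. Sall1 starts 2 and 3 hold 4 and 1 GC box matches and are not shown. The window of Foxd3, which also fell, holds no match.

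Sall1 start 1, chr8:89044113-89044412, minus strand: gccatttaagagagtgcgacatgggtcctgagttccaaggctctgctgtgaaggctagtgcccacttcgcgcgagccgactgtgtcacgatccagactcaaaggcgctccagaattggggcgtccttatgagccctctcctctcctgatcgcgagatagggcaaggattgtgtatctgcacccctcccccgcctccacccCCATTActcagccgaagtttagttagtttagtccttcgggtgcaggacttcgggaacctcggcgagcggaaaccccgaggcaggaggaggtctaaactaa
Utf1 start, chr7:139943606-139943905, plus strand: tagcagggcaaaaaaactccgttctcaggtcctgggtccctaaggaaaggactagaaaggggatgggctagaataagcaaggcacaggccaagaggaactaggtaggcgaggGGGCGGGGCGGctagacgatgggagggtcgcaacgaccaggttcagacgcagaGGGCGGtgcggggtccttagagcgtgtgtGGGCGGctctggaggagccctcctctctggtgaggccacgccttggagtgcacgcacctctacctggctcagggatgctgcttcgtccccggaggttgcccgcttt

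The Sall1 start 1 window holds 1 match to the NANOG homeodomain core, which 7.73% of all windows hold. It was the single match to that motif among the 10 windows of the 7 genes with a promoter entry (Sall1, Sall2, Utf1, Zscan10, Foxd3, Zfp281 and L1td1). The Utf1 window holds 4 GC box matches, of which a pair overlap each other, and 35.7% of all windows hold at least 1. Windows of Sall1 and Zfp281 also held GC boxes, so matches occurred beside genes that were higher and genes that were lower in R153A cells. None of the 10 windows matched the POU octamer letters or the SOX core, which 4.63% and 18.7% of all windows hold.

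Sall4, the Spalt factor known to be needed for the inner cell mass and to bind AT-rich DNA, did not pass the test. It stood at 37.3, 36.3 and 38.3 FPKM in R153A libraries, against 36.1, 40.7 and 37.1 FPKM in WT libraries. The groups overlapped, with the WT libraries spanning the R153A range. The log2 fold change was -0.023 with a 95% interval of -0.15 to 0.099 (limma adjusted p = 0.74). It was called lower under median-ratio scaling (log2 fold change -0.14, limma adjusted p = 0.015) and after the GC and length correction (-0.19, 0.0012). Median-ratio scaling moved the median log2 fold change of all genes to -0.034 and the correction moved it to -0.045, against 0.071 in the values as deposited. Sall4 overlaps the noncoding RNA gene Gm14261 in RefSeq, which limits its value in the same way as for Sall1.

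Sall3, known from nervous system and limb development, was the lowest of the 10 genes. It stood at 0.288, 0.214 and 0.279 FPKM in R153A libraries, against 0.502, 0.523 and 0.463 FPKM in WT libraries. No R153A library reached a WT level, at values too low for the filter. An exact permutation test over the libraries gave a two-sided p of 0.1, which is the lowest value 3 against 3 can reach. When all genes with any signal were tested, the log2 fold change was -0.25 (limma adjusted p = 0.0025).

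Within the Spalt family the makeup of the RNA shifted. Sall4 made up 63.3, 63.8 and 62.9% of the summed Spalt FPKM in R153A libraries, against 56.9, 56.5 and 57.2% in WT libraries. Sall1 made up 29.6, 28.8 and 30.3% in R153A libraries, against 41.5, 41.9 and 41.4% in WT libraries. Sall4 and Sall1 together thus held most of the Spalt RNA in every library. Sall2 made up 6.66, 7.02 and 6.37% in R153A libraries, against 0.836, 0.842 and 0.690% in WT libraries. The ratio of Sall4 to Sall1 FPKM was 2.15 ± 0.0691 in R153A cells and 1.37 ± 0.0185 in WT cells (SD, n = 3 each). That of Sall1 to Sall2 was 4.43 ± 0.326 in R153A cells and 53.1 ± 5.91 in WT cells. The summed Spalt FPKM was 58.9 ± 1.95 in R153A cells and 66.8 ± 4.59 in WT cells. For all of these quantities the libraries did not overlap between the genotypes, and an exact permutation test gave a two-sided p of 0.1, again the lowest reachable. Groups also did not overlap in 65% of all tested genes. These quantities were computed from the Spalt values given above and are not separate evidence. Shares of a library sum to the whole, so a larger Sall4 share need not mean more Sall4, which did not pass the test. The Sall1 to Sall2 ratio in WT cells rests on Sall2 values under 1 FPKM.

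**Figure D2:**
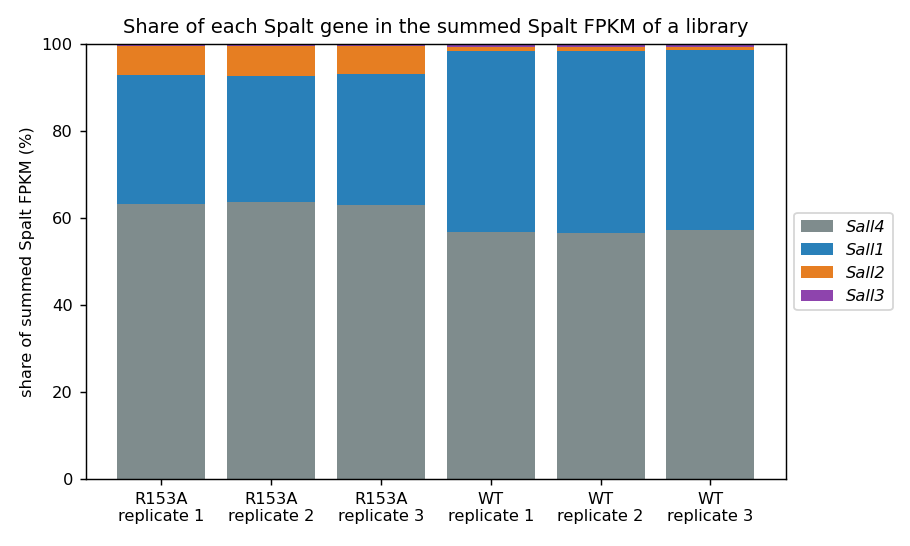
Share (%) of Sall4, Sall1, Sall2 and Sall3 in the summed Spalt FPKM of each library, R153A libraries left and WT libraries right; each bar is 1 library. Sall2 takes 6.37 to 7.02% in R153A libraries and 0.690 to 0.842% in WT libraries, while Sall1 takes 28.8 to 30.3% in R153A libraries and 41.4 to 41.9% in WT libraries.

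Utf1, a chromatin-associated factor that restrains genes poised for differentiation, was the most abundant of the 10 genes in both genotypes and fell most among those tested. It stood at 193, 175 and 193 FPKM in R153A libraries, against 283, 320 and 335 FPKM in WT libraries. The R153A libraries lay well below the WT libraries. This was a log2 fold change of -0.73 (SE 0.0669, adjusted p = 3.2e-06 by limma). Its longest transcript in GENCODE M21 is the shortest of the 10, with 1227 bases and a GC content of 63.5%, and after the GC and length correction the gene was still called lower.

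Foxd3, a forkhead factor of embryonic stem cells and neural crest, also fell. It stood at 5.78, 5.88 and 6.35 FPKM in R153A libraries, against 7.87, 8.88 and 8.06 FPKM in WT libraries. The groups did not overlap, although their ranges lay closer than those of Utf1. On the log2 scale the change was -0.40 (SE 0.0696, adjusted p = 4.5e-04 by limma), and it was -0.69 after the GC and length correction (limma adjusted p = 9.0e-06). Its transcript has the highest GC content of the 10, at 65.1%. Of 5 neural crest markers, 3 lay under 1 FPKM in every library. Ets1 and Twist1 were called higher in R153A cells, as were 37.5% of all tested genes, Ets1 being tested only through R153A cells. The log2 fold change of Twist1 was 0.51, and 0.30 under quantile normalization. Their summed level was 6.06 to 6.38 FPKM in R153A libraries and 2.71 to 3.28 FPKM in WT libraries, a direction opposite to that of Foxd3, and their part in the result was not tested.

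Rest was lower in R153A cells. It stood at 25.1, 22.8 and 26.9 FPKM in R153A libraries, against 40.1, 41.0 and 37.3 FPKM in WT libraries. No R153A library reached the lowest WT library. Rest changed by -0.64 on the log2 scale (SE 0.0652, adjusted p = 7.3e-06 by limma), and the mean was 1.58-fold higher in WT cells.

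The corepressors that act with REST moved in both directions. Of 12 tested, 3 were higher, 4 were lower and 5 did not pass, with a median log2 fold change of 0.061, near the 0.071 of all genes. The called share of 58.3% was near the 59.8% of all tested genes. Under median-ratio scaling 2 were higher and 5 lower. Rcor2, a CoREST scaffold, fell to 42.9 ± 1.21 FPKM in R153A cells, against 76.3 ± 8.08 FPKM in WT cells (log2 fold change -0.81, SE 0.0685, adjusted p = 1.8e-06 by limma). Hmg20b, a further CoREST complex subunit, fell to 20.1 ± 1.49 FPKM, against 30.6 ± 3.12 FPKM in WT cells. In contrast Sin3b, a SIN3 scaffold, rose to 124 ± 5.68 FPKM in R153A cells, against 90.8 ± 3.77 FPKM in WT cells, and Phf21a, a histone reader of the CoREST complex, rose to 1.83 ± 0.241 FPKM, against 1.12 ± 0.116 FPKM in WT cells, a call that ended under quantile normalization (adjusted p = 0.089 by limma). After the GC and length correction the log2 fold change was 0.27 for Sin3b, against 0.44 in the values as deposited, and 0.25 for Phf21a, against 0.42.

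Neuronal genes known as REST targets did not move together. Of 26 in the table, 13 lay under 1 FPKM in every library and were not tested. Of the 13 tested, 6 were higher, 4 were lower and 3 did not pass, with a median log2 fold change of 0.22. The share called was 76.9%, against 59.8% of all tested genes. Nefm, Vgf and L1cam were below 1 FPKM in all WT libraries and were tested only through R153A cells. The median and the share called include these 3 genes. Of the remaining 10 genes 4 were higher and 4 lower. After the GC and length correction 3 of the 13 were higher and 4 lower. Nefm, a neurofilament subunit, stood at 6.85 ± 0.273 FPKM in R153A cells and 0.808 ± 0.147 FPKM in WT cells. Vgf, a neuropeptide precursor, stood at 3.44 ± 0.0577 FPKM in R153A cells and 0.617 ± 0.147 FPKM in WT cells. Syp, the synaptic vesicle protein synaptophysin, rose to 3.75 ± 0.333 FPKM in R153A cells, against 1.14 ± 0.555 FPKM in WT cells (log2 fold change 1.18, SE 0.148, adjusted p = 4.2e-05 by limma). Tubb3, a neuronal tubulin, fell to 15.3 ± 0.112 FPKM in R153A cells, against 48.3 ± 4.07 FPKM in WT cells, and Stmn2, a neuronal microtubule regulator, to 40.7 ± 1.63 FPKM, against 71.8 ± 2.15 FPKM. These last genes carried much of the summed level of the 26, which was 97.2 to 99.9 FPKM in R153A libraries and 146 to 155 FPKM in WT libraries.

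Beside these values, 3 of the 7 neural markers, Sox1, Pax6 and Dcx, lay under 1 FPKM in every library, Nes was higher, and Tubb3, Ncam1 and Map2 were lower, Ncam1 being tested only through WT cells. The summed level of the 7 was 39.5 to 41.6 FPKM in R153A libraries and 52.7 to 62.2 FPKM in WT libraries. Tubb3, already counted among the REST targets, averaged 15.3 FPKM in R153A cells and 48.3 FPKM in WT cells. Nes went the other way, at 23.3 FPKM in R153A cells and 3.99 FPKM in WT cells. The lower sum in R153A cells thus rests on Tubb3. The part of the neural markers in the results for Rest, its targets and Sall2 was not tested.

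**Figure D3:**
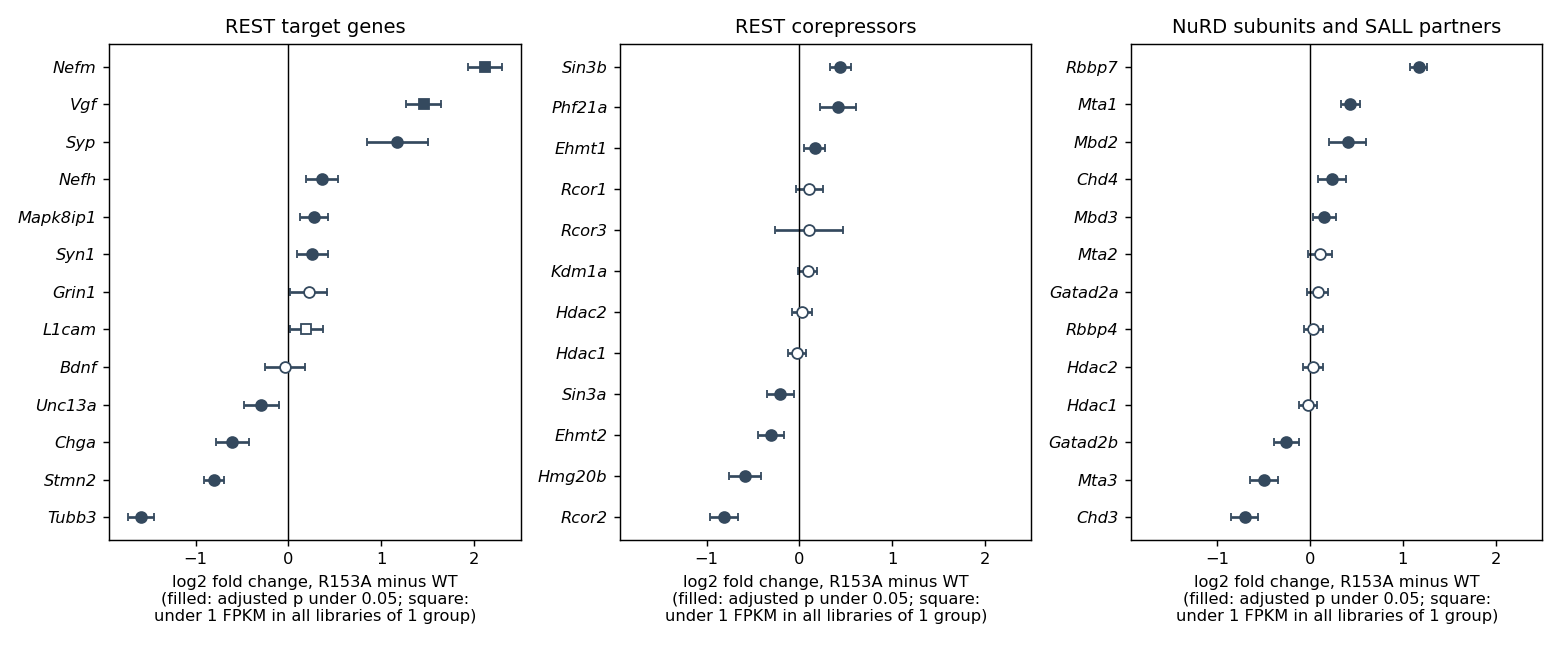
Log2 fold change (R153A minus WT, horizontal axis, with 95% intervals) of the tested REST target genes, REST corepressors and NuRD subunits; filled symbols have a limma adjusted p under 0.05 and squares mark genes under 1 FPKM in all libraries of 1 genotype. Nefm (2.12) and Tubb3 (-1.59) mark the ends of the REST targets, Rcor2 (-0.81) is the lowest corepressor, and Rbbp7 (1.17) the highest NuRD subunit.

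Zscan10 encodes a zinc-finger factor with a SCAN domain that binds OCT4 and SOX2. It stood at 23.4, 19.7 and 22.4 FPKM in R153A libraries, against 17.1, 20.2 and 17.7 FPKM in WT libraries. The groups overlapped, since the lowest R153A library lay under the highest WT library. Its log2 fold change of 0.24 passed the test (SE 0.0768, adjusted p = 0.019 by limma). That call ended in 6 of 17 alternatives, among them median-ratio scaling (log2 fold change 0.12, limma adjusted p = 0.11), the GC and length correction (0.066, 0.38) and no filter on low values (0.066). It also ended without R153A replicate 1 (limma adjusted p = 0.083), without R153A replicate 3 (0.060) and without WT replicate 1 (0.075).

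Zfp281, a zinc-finger factor known to restrain Nanog through NuRD and to act in the transition to primed pluripotency, was slightly higher in R153A cells. It stood at 23.2, 21.4 and 22.2 FPKM in R153A libraries, against 18.8, 19.9 and 18.3 FPKM in WT libraries. The groups did not overlap, but by a small margin. The log2 fold change was 0.22 (SE 0.0557, adjusted p = 0.0060 by limma), below the median absolute change of all genes, and it was not called under median-ratio scaling (0.10, limma adjusted p = 0.090). After the GC and length correction it was 0.12 (limma adjusted p = 0.032).

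NuRD is the remodelling and deacetylase complex recruited by Spalt factors and ZFP281. All 13 listed genes were tested, of which 5 were higher, 3 were lower and 5 did not pass, with a median log2 fold change of 0.082. The shares called (61.5%) and called higher (38.5%) were near the 59.8% and 37.5% of all tested genes, as the median was near 0.071. Under median-ratio scaling 3 were higher and 4 lower. Rbbp7, a histone-binding subunit, rose to 376 ± 4.31 FPKM in R153A cells, against 166 ± 0.429 FPKM in WT cells (log2 fold change 1.17, SE 0.0422, adjusted p = 2.7e-09 by limma). Mta1, a scaffold subunit, rose to 44.5 ± 0.840 FPKM, against 32.7 ± 0.820 FPKM in WT cells, with a log2 fold change of 0.43 that was 0.25 after the GC and length correction. Its relative Mta3 fell to 44.5 ± 1.93 FPKM in R153A cells, against 63.2 ± 6.29 FPKM in WT cells, and the remodeller Chd3 fell to 4.09 ± 0.167 FPKM, against 7.30 ± 0.219 FPKM. The deacetylases Hdac1 and Hdac2, also in the corepressor list, stood at 155 ± 2.80 and 56.2 ± 1.42 FPKM in R153A cells and at 157 ± 0.694 and 55.03 ± 1.80 FPKM in WT cells, and did not pass. Hdac1 was called lower under median-ratio scaling (adjusted p = 0.013 by limma) and after the GC and length correction (0.018).

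L1td1 rose in R153A cells. It stood at 143, 136 and 143 FPKM in R153A libraries, against 86.5, 98.2 and 75.4 FPKM in WT libraries. The lowest R153A library lay above the highest WT library, and the WT libraries varied more. L1td1 changed by 0.70 on the log2 scale (SE 0.0795, adjusted p = 1.9e-05 by limma). L1td1 and Foxd3 lie on the same chromosome, 4, and moved in opposite directions.

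A list of RNA-binding proteins related to L1TD1 and LIN28 was examined beside L1td1. Of 9 tested, 5 were higher, 1 was lower and 3 did not pass, with a median log2 fold change of 0.19. The called share of 66.7% was near the 59.8% of all tested genes, and 55.6% were higher, against 37.5%. Under median-ratio scaling 3 were higher and 2 lower. Lin28a, which blocks let-7 maturation and shares ribonucleoprotein complexes with L1TD1, rose to 99.03 ± 1.25 FPKM in R153A cells, against 43.4 ± 2.90 FPKM in WT cells (log2 fold change 1.17, SE 0.0537, adjusted p = 1.5e-08 by limma). Dnd1, an RNA-binding factor of germ cells, rose to 11.1 ± 0.649 FPKM, against 3.94 ± 0.335 FPKM in WT cells. Igf2bp1 rose to 58.6 ± 1.48 FPKM, against 45.2 ± 4.71 FPKM in WT cells, while its paralogue Igf2bp2 fell to 18.7 ± 0.938 FPKM, against 23.7 ± 1.18 FPKM. The log2 fold change of Igf2bp1 was 0.37, and 0.12 after the GC and length correction (adjusted p = 0.039 by limma).

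**Figure D4:**
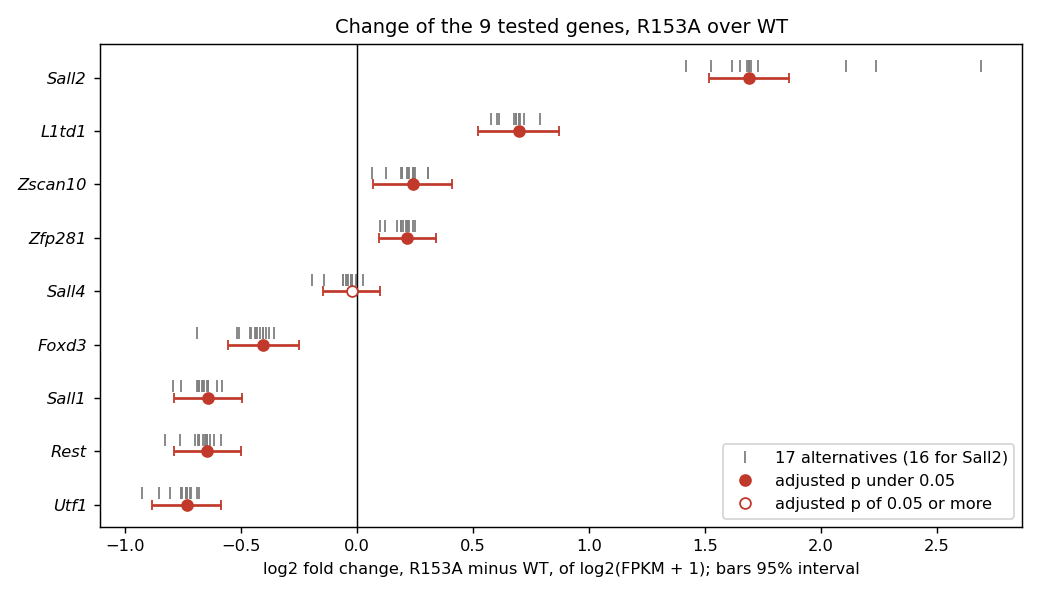
Log2 fold change of log2(FPKM + 1), R153A minus WT (horizontal axis), of the 9 tested genes, with 95% intervals; grey ticks are the values under the alternatives. Sall2 (1.69) and L1td1 (0.70) lie to the right of 0 and Utf1 (-0.73), Rest (-0.64), Sall1 (-0.64) and Foxd3 (-0.40) to the left in every alternative, while the ticks of Sall4 fall on both sides.

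Other core pluripotency factors moved in both directions. Of 19 tested, 9 were lower, 6 were higher and 4 did not pass, with a median log2 fold change of -0.18. Of these 19, 47.4% were lower and 31.6% higher, against 22.3% and 37.5% of all tested genes. Under median-ratio scaling 12 were lower and 4 higher. The list shares 7 genes with the embryonic stem cell markers above, and 6 of the 9 lower genes are among them. Of the remaining 12 genes, 3 were lower, 6 were higher and 3 did not pass. Fgf4, a growth factor secreted by embryonic stem cells, fell to 28.7 ± 0.291 FPKM in R153A cells, against 96.3 ± 4.22 FPKM in WT cells. Dppa5a, an RNA-binding protein of pluripotent cells, fell to 936 ± 20.5 FPKM, against 2575 ± 364 FPKM. Sox2, the partner of OCT4, fell to 84.5 ± 3.86 FPKM, against 209.8 ± 5.13 FPKM. Lin28a, counted both here and in the list of RNA-binding proteins, rose (log2 fold change 1.17). Wdr5, the scaffold subunit of histone methyltransferases in the title of the series, averaged 42.0 ± 0.982 FPKM in R153A cells and 65.3 ± 1.63 FPKM in WT cells.

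The order of the 10 levels changed in its middle part. In R153A cells it ran from Utf1 and L1td1 through Sall4, Rest, Zfp281, Zscan10, Sall1, Foxd3 and Sall2 to Sall3. In WT cells it ran from Utf1 and L1td1 through Rest, Sall4, Sall1, Zfp281, Zscan10, Foxd3 and Sall2 to Sall3. Neighbours whose libraries overlapped were Rest with Zfp281 and Zfp281 with Zscan10 in R153A cells, and Rest with Sall4, Zfp281 with Zscan10 and Sall2 with Sall3 in WT cells. Sall1 thus stood above Zfp281 and Zscan10 in WT cells and below both in R153A cells, without overlap in either genotype. Utf1 averaged 187 ± 10.1 FPKM and L1td1 140.5 ± 3.94 FPKM in R153A cells, while in WT cells they averaged 312 ± 26.8 and 86.7 ± 11.4 FPKM.

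The genes most similar to Sall2 over the 6 libraries were Dsc2, Mmp2 and Arrb1, by the root mean square difference of log2(FPKM + 1) profiles centred on each gene's mean (0.0325, 0.0360 and 0.0389). Dsc2, a desmosomal cadherin, stood at 3.79 ± 0.0776 FPKM in R153A cells and 0.466 ± 0.0663 FPKM in WT cells. Like Sall2, it was under 1 FPKM in all WT libraries and was tested only through R153A cells. Those most similar to Utf1, the gene that fell most, were Dmc1, Entpd4 and Wdr45 (0.0280, 0.0331 and 0.0377). Dmc1, a meiotic recombinase, stood at 8.19 ± 0.628 FPKM in R153A cells and 13.8 ± 1.32 FPKM in WT cells. Over 6 libraries in 2 groups such likeness mainly reflects a similar difference between the genotypes.

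Markers of other cell types were examined last. Of 8 fibroblast or feeder markers, 4 lay under 1 FPKM in every library, Col1a1 and Col1a2 (Col1a2 tested only through R153A cells) were called higher, and the summed level was 10.1 to 11.0 FPKM in R153A libraries and 6.52 to 8.86 FPKM in WT libraries. Of 7 primitive endoderm markers, 4 lay under 1 FPKM in every library. Foxa2 was called higher and Sox7 lower, each tested only through the genotype in which it was higher, and Gata4 did not pass. The share called was 66.7% of the 3 tested, against 59.8% of all tested genes. The summed level was 5.71 to 6.46 FPKM in R153A libraries and 3.43 to 4.65 FPKM in WT libraries. That difference rests on Foxa2, at 3.40 FPKM in R153A cells and 0.176 FPKM in WT cells. No marker of these lists was listed at 0 in all 6 libraries, and their part in the results above was not tested.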

How the data were processed

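The authors deposited 1 table of FPKM values, 1 value per gene symbol and library. The submitters' processing notes name the build mm9 and, without roles, edgeR 3.26.8, HTSeq 0.11.2, SAMtools 1.9 and Bowtie2 2.3.4.3. They do not name the tool behind FPKM, the annotation, strand use or filters. Ratios of low values between libraries showed no common step of a single read, so depth was not recovered and no count test was run. A listed 0 can be a failed estimate, since Hmgcs1, a sterol synthesis gene, had 0 in all 6 libraries.

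Values were used as deposited, as log2(FPKM + 1), for genes with at least 1 FPKM in at least 3 of 6 libraries, and tested with limma 3.58.1 in R 4.3.3 (mean-variance trend, 2-sided, Benjamini-Hochberg adjustment, calls under 0.05). The fit was tested on simulated data with independent noise and effects added to a small part of the genes. In the real data 59.8% of tested genes were called, so the simulation does not check the calls given here. Values after ± are SDs over 3 libraries. The members and lists were chosen with earlier results of these data known. Named were all members, Nanog and Wdr5, up to 4 called genes of each list by size of change, and the 3 most similar genes of the largest rise and the largest fall. Hdac1, Hdac2, Stmn2, Mettl3, L1cam, the overlapping noncoding genes and the remaining markers were chosen with their values in view. As 17 alternatives, the fit was repeated with pseudocounts of 0.1 and 0.5, quantile normalization, median-ratio scaling, TPM rescaling, no filter, a 5 FPKM filter, no trend, moderation made robust, a block for replicate number, a loess correction on GC content and length (span 0.5, GENCODE M21 transcripts, 99.4% of genes matched) and leaving out each library. Promoters came from RefSeq on GRCm38.p6 and matched 7 of the 10 genes. Figures were drawn with matplotlib 3.10.9.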

Additional observations from a re-analysis of the deposited data

How the results depend on the processing

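Sall1, Utf1, Rest, Foxd3 and L1td1 kept their direction and their call in all 17 alternatives. Their log2 fold changes ranged from -0.79 to -0.58, -0.93 to -0.68, -0.83 to -0.59, -0.69 to -0.36 and 0.58 to 0.79. Sall2, which passed the filter only through R153A cells, ranged from 1.42 to 2.69, and a filter of 5 FPKM removed it. Sall4 ranged from -0.058 (without WT replicate 1) to 0.026 (without WT replicate 2, limma adjusted p = 0.64) when a library was left out, against -0.023 with all libraries. Under median-ratio scaling 2 of the regulators were called higher, against 4, because Zscan10 and Zfp281 no longer passed. Leaving out 1 library left 3 to 4 called higher and 4 called lower. Over all genes, 2901 were called higher with a filter of 5 FPKM, against 4428, where fewer genes (8071) were tested, and 4053 under median-ratio scaling and 4312 after the GC and length correction were called lower, against 2634. The cause of the shifts under scaling was not tested. Counts within the gene lists moved by over 1.5 times in 22 of 340 comparisons of a list count with its value in an alternative. With the replicate number as a block, 4 regulators were called higher and 4 lower, 4316 genes were called higher and 2560 lower, and the block ended or added no call among the regulators. Same-numbered libraries did not deviate together (correlations of -0.049, -0.0095 and 0.060 for numbers 1, 2 and 3), and not every library correlated best with its own number. With 3 libraries per genotype these correlations do not show whether same-numbered libraries shared a culture or preparation. Depth is unknown, so no counting error can be given for genes under 1 FPKM, such as Sall3, or Sall2 in WT cells.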
